A study of Mus musculus with 3 samples.

Results

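Prl2c3, Prl2c2, Prl2c5 and Prl2a1, 4 genes of the mouse prolactin family, were examined among 34742 genes in cultured lung mesenchymal stromal cells (LMSCs). They were chosen by their measured values, as prolactin-family genes with far more counts in the LMSCs of the metastatic stage than in those of the earlier stages. Their levels are therefore given as a description with no test. The cells were adherent LMSCs cultured from MMTV-PyMT transgenic animals on the FVB background, in which the mouse mammary tumor virus promoter drives the polyoma middle T antigen in mammary epithelium. They were depleted of CD45+ leukocytes with magnetic beads and grown in medium with fetal bovine serum. RNA-seq of total RNA gave 1 library for each of 3 stages: A-LMSCs from 7-week-old mice with small primary tumors, PM-LMSCs from 11-week-old mice with large primary tumors and no lung metastasis, and M-LMSCs from 13-week-old mice with lung metastases. Mice of all 3 stages carried the transgene, no tumor-free library was analysed here, and age and stage cannot be told apart. By the replicate numbers in the methods and legends, which are counted in mice, each stage was represented here by 1 mouse. The comparison of stages asks how these hormone genes were transcribed in the lung stroma as the mammary tumor progressed.

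Prolactin-family hormones are secreted proteins related to growth hormone, and in rodents most of the family is made by the placenta, chiefly by trophoblast giant cells and the spongiotrophoblast. The proliferins, also called mitogen-regulated proteins, carry this dual name because they were found both as placental hormones and as transcripts induced by serum and growth factors in mouse fibroblast lines. Proliferin acts on endothelial cells as an angiogenic hormone and binds the insulin-like growth factor 2 receptor, whereas the proliferin-related protein encoded by Prl7d1 is antiangiogenic. Prl2c2, Prl2c3 and Prl2c5 encode proliferins. Prl2a1 encodes prolactin-like protein M, a placental hormone of the same family.

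All 4 genes lie on chromosome 13 of the mm10 build. Prl2c3 spans chr13:12790822-12800078 and Prl2c2 spans chr13:12996132-13005383, both on the minus strand, and Prl2c5 spans chr13:13182715-13191923 on the plus strand. Prl2a1 lies apart from these proliferins, within the main prolactin cluster, at chr13:27801654-27808729 on the plus strand. The GENCODE M21 gene models have 5 exons for Prl2c3, Prl2c2 and Prl2a1 and 6 exons for Prl2c5. No other gene model overlaps any of them, so no other annotated gene shares their bases.

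The coding sequences are shown because the Prl2c3 and Prl2c2 transcripts are nearly the same, which bears on how reads could be divided between the genes. The first 90 coding bases follow for the 3 proliferins (GENCODE M21 transcripts, mm10, C57BL/6J reference), with capitals at the 16 positions where the sequences differ from each other.
Prl2c3: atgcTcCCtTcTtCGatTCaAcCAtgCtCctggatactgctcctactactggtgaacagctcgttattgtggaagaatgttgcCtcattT
Prl2c2: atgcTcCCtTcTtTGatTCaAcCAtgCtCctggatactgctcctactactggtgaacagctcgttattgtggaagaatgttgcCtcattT
Prl2c5: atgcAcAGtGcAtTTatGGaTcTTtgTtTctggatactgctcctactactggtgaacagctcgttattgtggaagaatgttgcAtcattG
Within this stretch Prl2c3 and Prl2c2 differ at 1 base, C14T, counted from 1 at the A of the start codon with the Prl2c3 base first.

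Over all 672 coding bases, Prl2c3 and Prl2c2 were 99.6% identical and differed at 3 positions, C14T, A200C and G319T. The longest coding run without a difference was 353 bases, after the last of these sites, and the 842 aligned bases of the whole transcripts held 4 differences. A short read from most of either transcript therefore matches both genes. Prl2c5 was less alike, identical to Prl2c3 at 632 and to Prl2c2 at 633 of 666 aligned coding bases, and Prl2a1 was the most distant, at 65.8% coding identity to Prl2c3. Of all 50-base windows, 78.6% in the Prl2c3 transcript, 89.5% in Prl2c2, 39.6% in Prl2c5 and 0% in Prl2a1 also occurred in a transcript of another gene. The values of Prl2a1 are thus free of this ambiguity at that window length, whereas those of Prl2c3 and Prl2c2 are uncertain one against the other. Of these windows, 11.5% in Prl2c3 and 18.5% in Prl2c2 also occurred in Prl2c5, and some in Prl2c1 and a further gene model. The sum of the pair is therefore not wholly free of shared sequence. How the authors assigned reads matching several genes was not given in the sources used here, so the summed values are given beside the single ones. The mice were FVB and the reference is C57BL/6J, and strain differences at the few distinguishing bases were not examined.

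**Figure D1:**
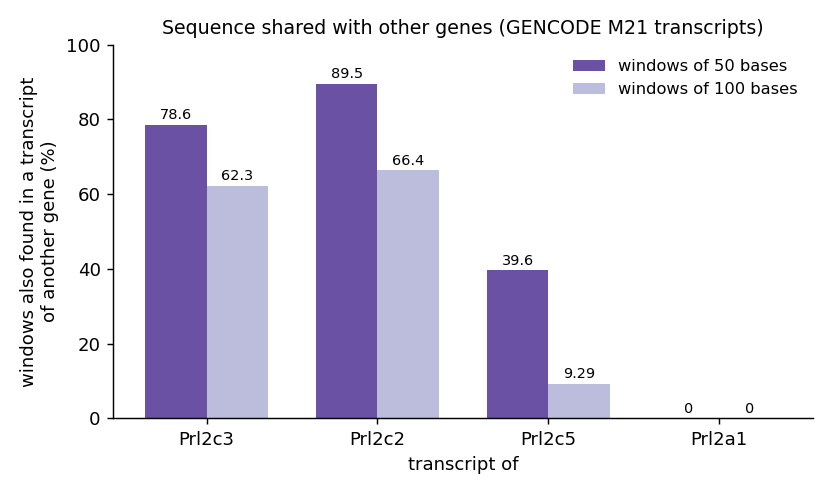
Share of sequence windows (y axis, percent of all windows) in the transcript of each gene (x axis) that is also found in a transcript of another gene, for windows of 50 bases (dark bars) and 100 bases (light bars). Prl2c3 and Prl2c2 had the highest shares, at 78.6% and 89.5% for 50 bases and 62.3% and 66.4% for 100 bases, and Prl2a1 had none.

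Sequencing depth was similar, with 12594155 to 14338909 counts per library, and between 14871 and 17085 genes had a count. CPM below are counts scaled to a common library size with TMM. Intervals cover counting error only. A count of 0 is taken to allow up to 3 counts, or 0.272, 0.234 and 0.174 CPM in the libraries of the A, PM and M stages. With 1 library per stage there is no replicate error, so no difference could be tested.

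Prl2c3, a proliferin gene, had 1 count in A-LMSCs, 68 in PM-LMSCs and 7508 in M-LMSCs. These correspond to 0.0906 CPM (Poisson 95% interval 0.00229 to 0.505), 5.31 CPM (4.13 to 6.73) and 435.6 CPM (425.8 to 445.6). The level was near the detection limit in A-LMSCs and far above both other libraries in M-LMSCs, with no overlap of the 3 intervals. The ratio of M-LMSCs to PM-LMSCs was 82.0-fold (95% counting interval 64.6 to 106). The ratio to A-LMSCs was 4806-fold with an interval from 862 to 189838, since it rests on 1 count.

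Prl2c2, its near-identical partner, was already present at the adenoma stage, with 293 counts in A-LMSCs, 370 in PM-LMSCs and 4098 in M-LMSCs. The CPM were 26.6 (23.6 to 29.8), 28.9 (26.0 to 32.0) and 237.8 (231 to 245). Thus the first 2 libraries overlapped and only M-LMSCs stood above them. The PM-LMSC to A-LMSC ratio was 1.09-fold (0.931 to 1.27), while the M-LMSC level was 8.95-fold (7.95 to 10.1) that of A-LMSCs and 8.23-fold (7.39 to 9.17) that of PM-LMSCs. The sum of Prl2c2 and Prl2c3, which does not depend on how shared reads were divided between them, was 294, 438 and 11606 counts. The summed pair was 25.3-fold (22.5 to 28.5) higher in M-LMSCs than in A-LMSCs and 19.7-fold (17.9 to 21.7) higher than in PM-LMSCs.

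Prl2c5, the third proliferin gene, had 5, 29 and 492 counts in order of stage. The CPM were 0.453 (0.147 to 1.06), 2.27 (1.52 to 3.25) and 28.5 (26.1 to 31.2), so each later library lay above the one before. The M-LMSC level was 63.0-fold (26.8 to 195) that of A-LMSCs and 12.6-fold (8.66 to 19.0) that of PM-LMSCs.

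Prl2a1, which encodes prolactin-like protein M, had 0 counts in A-LMSCs, 3 in PM-LMSCs and 453 in M-LMSCs. The M-LMSC level was 26.3 CPM (23.9 to 28.8), at least 96.7-fold higher than the 3-count limit of the A-LMSC library. Against PM-LMSCs the ratio was 112-fold (38.1 to 546). Both earlier libraries were at or under the limit, and no ratio between them is given. This is the gene whose transcript shared no 50-base window with another, and it lies in the other gene cluster of the chromosome. Prl2a1 was itself chosen by its M-LMSC counts, so nothing is inferred from them about other genes.

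**Figure D2:**
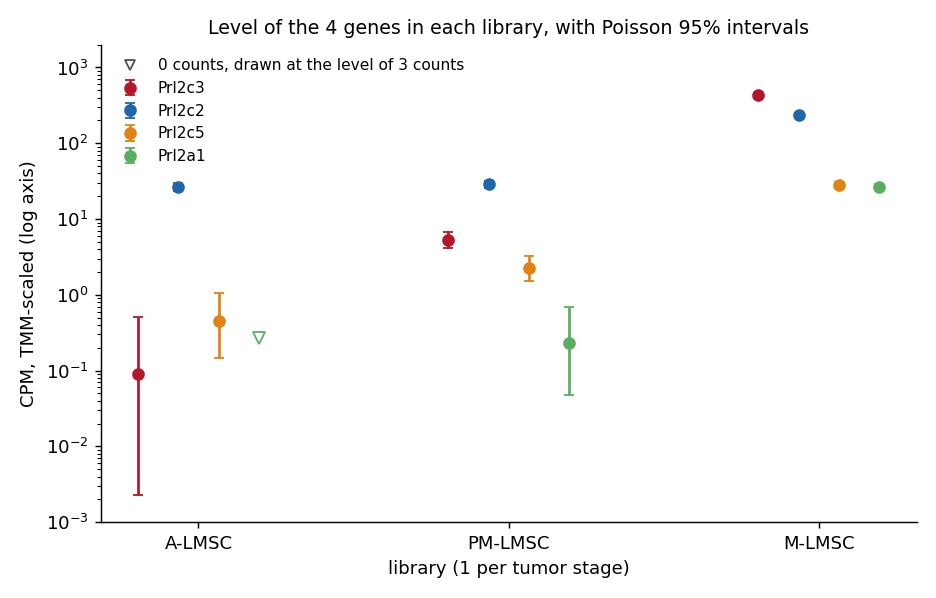
Level of each gene (y axis, TMM-scaled CPM on a log axis) in the 3 libraries (x axis), with bars for the Poisson 95% intervals, which cover counting error only, and an open triangle for a gene with 0 counts, drawn at the level of 3 counts. All 4 genes were highest in M-LMSCs, where Prl2c3 reached 435.6 CPM, and Prl2c2 alone was above 20 CPM in every library, from 26.6 to 237.8 CPM.

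Summed over the 4 genes, the counts were 299 in A-LMSCs, 470 in PM-LMSCs and 12551 in M-LMSCs, or 27.1 CPM (24.1 to 30.4), 36.7 CPM (33.5 to 40.2) and 728.2 CPM (715 to 741). The M-LMSC sum was 26.9-fold (24.0 to 30.2) that of A-LMSCs and 19.8-fold (18.1 to 21.8) that of PM-LMSCs, and the PM-LMSC sum was 1.35-fold (1.17 to 1.57) that of A-LMSCs. Nearly all of the difference between stages therefore lay between PM-LMSCs and M-LMSCs. On the scale of log2(CPM + 1), the sums differed by 0.42 between PM-LMSCs and A-LMSCs, 4.70 between M-LMSCs and A-LMSCs and 4.27 between M-LMSCs and PM-LMSCs. The median of all measured genes moved by 0.19, 0.34 and 0.03, and relative to it the summed differences were 0.23, 4.36 and 4.24.

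A gene was counted as higher or lower when it differed at least 2-fold on the CPM + 1 scale, with 1 CPM or more in the higher library. In M-LMSCs against A-LMSCs, 4 of 4 genes were higher and 0 lower, in a comparison in which 41.0% of 13223 measured genes were higher and 27.7% lower. In M-LMSCs against PM-LMSCs, 4 of 4 were higher, where 17.3% of 13181 genes were higher and 7.85% lower. In PM-LMSCs against A-LMSCs, Prl2c3 and Prl2c5 were higher, Prl2c2 was within 2-fold and Prl2a1 was not measured, where 35.0% of 12727 genes were higher and 25.0% lower. The 4 genes were selected on these values, so nothing is read from their counts against these shares. The same shares of all genes belong beside the counts of higher and lower genes in the lists below. Of the genes past 2-fold in M-LMSCs against A-LMSCs, 59.6% were higher, a split that became 77.6% with scaling by library totals alone, 77.1% with FPKM and 49.6% with the trend described next removed.

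The ratio between libraries varied with the base composition of the transcript. Across 12588 measured protein-coding genes, the log2 ratio of M-LMSCs to A-LMSCs had a Spearman rho of -0.71 with GC content, so that genes poor in G and C tended to be higher in M-LMSCs. This is a description across genes of the same 2 libraries, which are not independent replicates. The 4 transcripts had 40.0% to 44.3% GC and 842 to 971 bases, against medians of 50% and 3442.5 bases over coding genes. With a smooth trend on GC content and transcript length subtracted, the log2 difference of M-LMSCs to A-LMSCs was 6.82 for Prl2c3, 1.28 for Prl2c2, 2.59 for Prl2c5, 2.92 for Prl2a1 and 2.87 for the sum. The M-LMSC to PM-LMSC values became 4.81, 1.70, 1.85, 3.76 and 2.99 in the same order. All 4 genes thus stayed over 2-fold higher in M-LMSCs with the trend removed, but by smaller amounts. The summed difference of PM-LMSCs to A-LMSCs turned from 0.42 to -0.23, so its direction depends on whether the trend is subtracted, and 1 of the 4 genes, Prl2c3, was then still 2-fold higher.

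The order of the genes by level changed between the libraries. In FPKM, the authors' length-normalised values, Prl2c2 was the highest of the 4 in A-LMSCs at 26.0, followed by Prl2c5 at 0.216, Prl2c3 at 0.0872 and Prl2a1 at 0. The order of Prl2c5 and Prl2c3 there rests on 5 and 1 counts. In PM-LMSCs the values were 35.2 for Prl2c2, 6.35 for Prl2c3, 1.34 for Prl2c5 and 0.269 for Prl2a1. In M-LMSCs Prl2c3 came first at 615.9 FPKM, above Prl2c2 at 342, with Prl2a1 at 35.7 and Prl2c5 at 19.98. Prl2c3 then ranked 67 and Prl2c2 ranked 135 among the 34742 genes by FPKM, whereas in A-LMSCs Prl2c2 had ranked 1909 and Prl2c3 12568. Together the 4 genes took 0.0875% of all counts in M-LMSCs.

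The same change appeared in how the counts of the 4 genes were divided. Prl2c2 held 98.0% of them in A-LMSCs (exact Clopper-Pearson 95% interval 95.7 to 99.3), 78.7% in PM-LMSCs (74.7 to 82.3) and 32.7% in M-LMSCs (31.8 to 33.5). Prl2c3 held 0.334% (0.00847 to 1.85), 14.5% (11.4 to 18.0) and 59.8% (59.0 to 60.7). These shares do not overlap between libraries and do not depend on the scaling, which is common to all genes of a library. Prl2c3 had 0.00341 counts for each Prl2c2 count in A-LMSCs (8.6e-05 to 0.0192), 0.184 in PM-LMSCs (0.140 to 0.239) and 1.83 in M-LMSCs (1.76 to 1.90). How far the assignment of reads that match both genes entered this ratio was not tested. Prl2c5 held 1.67%, 6.17% and 3.92% of the counts, and Prl2a1 0.638% in PM-LMSCs and 3.61% in M-LMSCs. Its count of 0 in A-LMSCs allows a share of up to 1.23%.

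**Figure D3:**
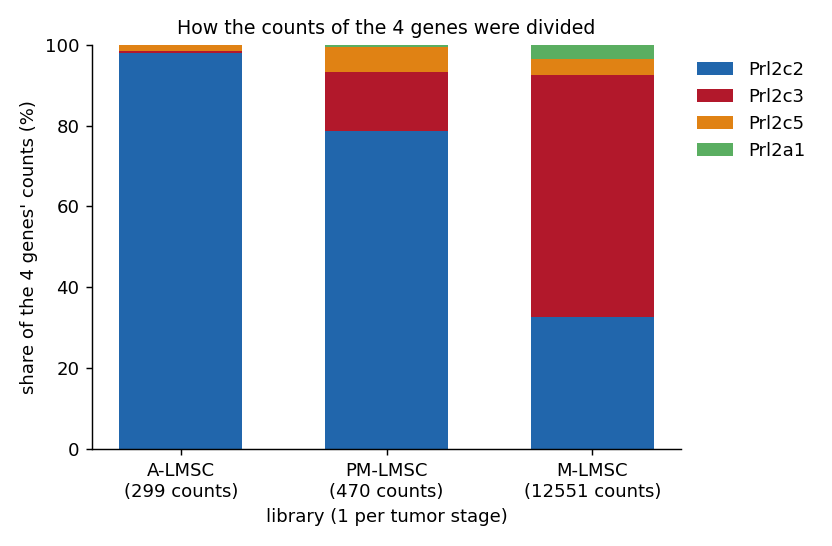
Share of the summed counts of Prl2c2, Prl2c3, Prl2c5 and Prl2a1 (y axis, percent, stacked to 100) in each library (x axis, with the summed counts in brackets). Prl2c2 took 98.0% of 299 counts in A-LMSCs and 32.7% of 12551 counts in M-LMSCs, and Prl2c3 took 0.334% and 59.8%.

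The rest of the prolactin family was largely silent. Of 24 other family genes listed, 23 were in the table, and 13 of these had no count in any library, among them prolactin itself (Prl), growth hormone (Gh), placental lactogen II (Prl3b1) and the proliferin-related protein gene Prl7d1. A-LMSCs had counts for 1 of the 23, PM-LMSCs for 2 and M-LMSCs for 10, and the summed counts were 5, 19 and 486. Prl8a9, a placental prolactin-like hormone gene of the main cluster, had 5, 12 and 357 counts, and its M-LMSC level was 45.7-fold (19.4 to 142) that of A-LMSCs and 22.1-fold (12.5 to 43.2) that of PM-LMSCs. Prl3a1, of the same kind, had 0, 0 and 90 counts. Its M-LMSC level was at least 19.2-fold higher than the limit of A-LMSCs and at least 22.3-fold higher than that of PM-LMSCs. These 2 were the members of this list that reached 1 CPM.

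Of the remaining family genes, Prl2c1, which shares 50-base windows with the proliferins, had 10 counts in M-LMSCs and 0 in the other libraries. Prl3d2, a placental lactogen I gene, had 0, 7 and 7 counts. Prl6a1 had 7 counts, Prl7a1 5, Prl3d1 and Prl3d3 3 each and Prl8a1 and Prl7b1 2 each, in M-LMSCs alone. Their counts were too few to compare between libraries. Counts were thus spread over both gene groups of chromosome 13 in M-LMSCs, but 12551 of the family's counts there came from the 4 genes chosen.

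**Figure D4:**
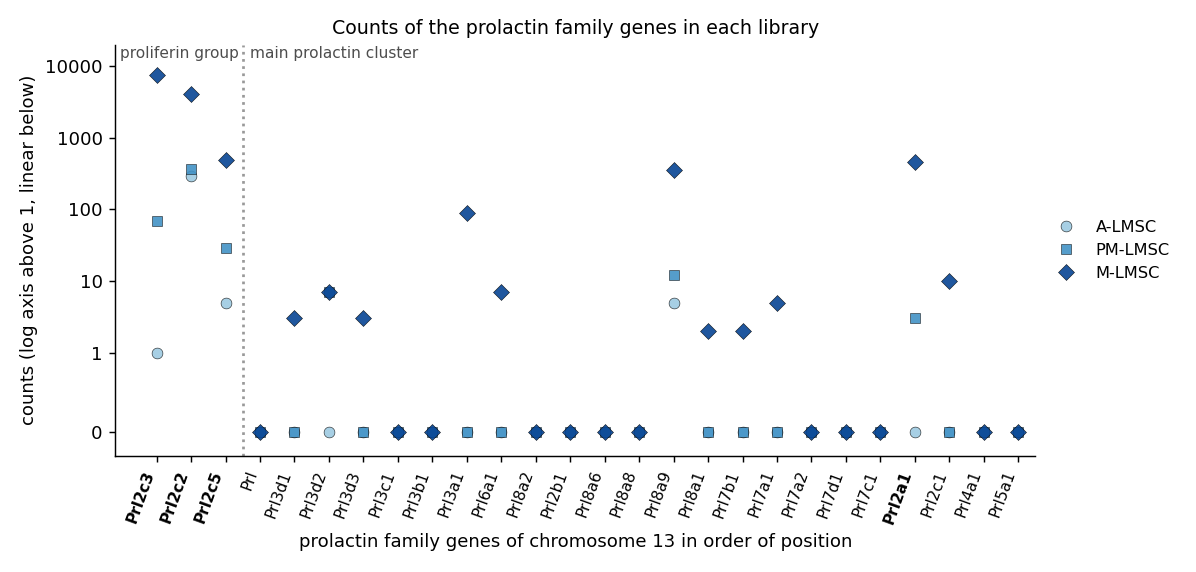
Counts (y axis, log scale above 1 and linear below) of the prolactin family genes of chromosome 13 in order of position (x axis, equal spacing) in A-LMSCs (circles), PM-LMSCs (squares) and M-LMSCs (diamonds), with the 4 chosen genes in bold and a dotted line between the proliferin group and the main cluster. M-LMSCs had 357 counts for Prl8a9 and 90 for Prl3a1, whereas Prl7d1 and Prl had 0 counts in every library.

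Promoter sequences are shown because genes with almost the same window upstream of the start differed in their counts. They are the 250 bases before the transcript start in RefSeq (GRCm38.p6), written 5′ to 3′ on the gene's strand. RefSeq windows were matched for 3 of the 4 chosen genes, all but Prl2c2. Capitals mark the AP-1 motif TGANTCA and the core promoter motif TATATAA. Prl2c3 is at chr13:12800080-12800329 (minus strand), Prl2c5 at chr13:13182466-13182715 (plus), Prl7d1 at chr13:27716738-27716987 (minus) and Prl2a1 at chr13:27801405-27801654 (plus).
Prl2c3: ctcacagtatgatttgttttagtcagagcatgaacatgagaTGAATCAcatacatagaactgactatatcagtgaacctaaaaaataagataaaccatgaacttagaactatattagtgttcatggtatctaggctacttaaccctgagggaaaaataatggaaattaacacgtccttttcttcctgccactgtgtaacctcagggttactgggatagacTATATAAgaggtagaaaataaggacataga
Prl2c5: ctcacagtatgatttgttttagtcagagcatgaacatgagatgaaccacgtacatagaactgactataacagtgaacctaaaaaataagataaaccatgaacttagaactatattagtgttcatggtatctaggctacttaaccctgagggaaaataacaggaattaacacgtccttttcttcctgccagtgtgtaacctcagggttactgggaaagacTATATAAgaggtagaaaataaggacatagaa
Prl7d1: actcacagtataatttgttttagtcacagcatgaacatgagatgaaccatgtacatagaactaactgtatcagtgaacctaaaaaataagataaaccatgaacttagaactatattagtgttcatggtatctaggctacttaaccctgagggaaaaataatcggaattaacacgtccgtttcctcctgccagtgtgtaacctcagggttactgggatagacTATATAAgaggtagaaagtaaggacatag
Prl2a1: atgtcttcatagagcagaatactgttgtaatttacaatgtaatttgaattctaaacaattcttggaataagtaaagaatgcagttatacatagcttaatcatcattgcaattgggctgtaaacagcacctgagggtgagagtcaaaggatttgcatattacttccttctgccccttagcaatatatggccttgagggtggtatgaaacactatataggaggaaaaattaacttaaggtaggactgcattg
The windows of Prl2c3 and Prl2c5 were 96.8% identical, and the Prl7d1 window was 94.8% identical to Prl2c3 and 95.2% to Prl2c5. Yet Prl7d1 had 0 counts in each library, while Prl2c5 had 492 and Prl2c3 7508 in M-LMSCs. The Prl2a1 window was 65.8% identical to that of Prl2c3.

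4 motifs were searched on both strands of these windows: TGANTCA as bound by AP-1, NGATAA as bound by the trophoblast factors of the GATA family, the palindromic glucocorticoid response element, and TATATAA as in the core promoter box of that name. They occurred in 6.87%, 23.0%, 0.381% and 3.26% of 27025 mouse promoter windows of the same length. Prl2c3 held TGAATCA at -209 to -203, AGATAA at -163 to -158 and TATATAA at -30 to -24, with positions counted back from the transcript start. Prl2c5 and Prl7d1 held the GATA and TATA matches at nearly the same positions but no AP-1 match, Prl3a1 held TGAGTCA at -138 to -132, and Prl2a1 and Prl8a9 held no match. No 2 matches overlapped. A match describes these letters in the reference strain and says nothing of whether a factor bound there.

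Prolactin itself acts through the prolactin receptor, JAK2 and STAT5, with proteins of the SOCS family as feedback inhibitors. Whether the products of the 4 genes use this pathway was not tested. Prlr, the prolactin receptor gene, had 0 counts in A-LMSCs and PM-LMSCs and 15 in M-LMSCs, or 0.870 CPM, and did not reach 1 CPM. Igf2r, the receptor that binds proliferin, was abundant and was at 34.0, 321.2 and 271.2 CPM in the same order. It was therefore high from the PM-LMSC library on, where the summed proliferins were still near their A-LMSC level. Jak2, the kinase gene of the prolactin receptor pathway, was at 3.99, 21.3 and 45.7 CPM. Ghr, the growth hormone receptor gene, was at 7.70, 27.0 and 64.6 CPM. Both were higher in each later library in CPM. With the trend removed, the log2 difference of M-LMSCs to A-LMSCs fell from 3.23 to 0.87 for Jak2 and from 2.91 to 0.75 for Ghr. That of Igf2r fell from 2.96 to 2.06. Of the inhibitors, Socs3 was at 361, 62.6 and 64.9 CPM and Socs1 at 21.4, 6.25 and 3.42 CPM, whereas Socs2 was at 1.81, 15.9 and 14.2 CPM. With the trend removed, the M-LMSC to A-LMSC log2 differences of these inhibitors came within 2-fold. They went from -2.46 to -0.87 for Socs3, -2.34 to -0.82 for Socs1 and 2.43 to 0.38 for Socs2. Over the 10 genes of this list, 9 were measured in M-LMSCs against A-LMSCs, of which 4 were higher and 4 lower. Their median log2 difference was -0.77, against 0.34 for all genes, and it turned to 0.40 with scaling by library totals alone.

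Prolactin signalling through STAT5 is known to drive milk protein genes in the mammary gland. Of 8 such genes, 6 had no count in any library. Csn1s1, the alpha-S1 casein gene, had 0 counts in A-LMSCs, 2 in PM-LMSCs and 430 in M-LMSCs, and Csn3, the kappa casein gene, had 0, 0 and 253. Both were thus confined to M-LMSCs apart from the 2 counts in PM-LMSCs, and Csn2, Wap and Lalba were at 0 in all 3 libraries.

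Proliferin genes are known in mouse fibroblasts as targets of growth factors, of AP-1 and of glucocorticoids, and these regulators were measured next. Of 12 mitogen genes, 10 were measured in M-LMSCs against A-LMSCs, of which 8 were higher and 0 lower, with a median log2 difference of 1.72 (0.68 once that base composition trend was subtracted). The same list had 6 higher and 0 lower of 9 in PM-LMSCs against A-LMSCs, with a median log2 difference of 1.94 (0.65 with the trend removed). The sum of the 4 genes differed by 0.42 in that comparison. Prl2c3 and Prl2c5 were nevertheless higher there, by 2.53 and 1.17, while Prl2c2 was within 2-fold and Prl2a1 was not measured. With the trend removed, only Prl2c3 of the 4 stayed 2-fold higher. Whether the list changed before the 4 genes was not tested. Ereg, which encodes the EGF receptor ligand epiregulin, was at 6.71, 78.6 and 174 CPM in order of stage. Pdgfb, encoding platelet-derived growth factor B, was at 0.363, 1.25 and 12.5 CPM, and Tgfa at 1.27, 2.11 and 7.54 CPM. Pdgfb and Tgfa had their larger step between PM-LMSCs and M-LMSCs, as the summed proliferins did, whereas the larger step of Ereg was between A-LMSCs and PM-LMSCs. The summed list was highest in PM-LMSCs, at 129.8, 653.4 and 467.1 CPM. In M-LMSCs against PM-LMSCs, 4 of 10 measured were higher and 2 lower. The 2 lower were Hbegf, at 16.6, 252 and 41.8 CPM, and Fgf2, at 10.9, 62.4 and 16.0 CPM. Areg, another EGF receptor ligand gene, was at 1.18, 9.22 and 13.1 CPM. Btc, which encodes betacellulin, was at 0.634, 2.58 and 4.18 CPM, and its log2 difference of 1.66 in M-LMSCs against A-LMSCs turned to -0.12 with the trend removed. Egfr, the receptor gene, was at 47.9, 187 and 166 CPM, and its log2 difference of 1.77 in M-LMSCs against A-LMSCs turned to -1.12 with the trend removed.

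In CPM, the AP-1 subunit genes did not rise together. Of 10, 0 were higher and 4 lower in M-LMSCs against A-LMSCs, and in M-LMSCs against PM-LMSCs 2 were higher and 2 lower. The median log2 difference of M-LMSCs to A-LMSCs was -0.62, turning to 0.61 with the trend removed and 0.06 in FPKM. Junb was at 1037, 217.4 and 223.8 CPM and Jund at 543, 77.0 and 155.5 CPM, so both were highest in A-LMSCs in CPM, although the log2 difference of Jund in M-LMSCs against A-LMSCs turned from -1.80 to 0.049 with the trend removed. Fos was at 31.9, 11.6 and 61.6 CPM, Fosl1 at 149.8, 220.5 and 60.7 CPM, Fosl2 at 135.1, 446.7 and 253.4 CPM and Batf3 at 1.27, 0.547 and 0.116 CPM. With the trend removed, the lower M-LMSC values of Fosl1 and Batf3 against A-LMSCs turned to log2 differences of 0.28 and 0.59. Fos and Batf were then over 2-fold higher, at 1.36 and 1.37, and only Junb stayed lower, at -0.47. In CPM, the subunits with their highest value in M-LMSCs were Fos, Atf3 at 11.2, 9.37 and 14.2 CPM, and Batf at 1.18, 0.625 and 1.22 CPM.

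Of 10 genes for the glucocorticoid receptor and its response, 3 were higher and 4 lower of 9 measured in M-LMSCs against A-LMSCs, with a median of -0.94 (0.15 with the trend removed). Nr3c1, the receptor gene itself, had 16, 72 and 680 counts, or 1.45, 5.62 and 39.5 CPM, and so was highest in M-LMSCs as the proliferins were. Its target genes diverged. Fkbp5 was at 95.6, 58.9 and 20.7 CPM, Per1 at 81.0, 32.0 and 14.4 CPM and Mt1 at 1521, 465.8 and 301.8 CPM, each lowest in M-LMSCs. Klf9 was at 3.17, 12.0 and 23.3 CPM and Sgk1 at 21.7, 275 and 135.1 CPM, each lowest in A-LMSCs in CPM. With the trend removed, the log2 difference of PM-LMSCs to A-LMSCs turned from 1.63 to -0.030 for Klf9 and from 1.43 to -0.45 for Nr3c1.

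**Figure D5:**
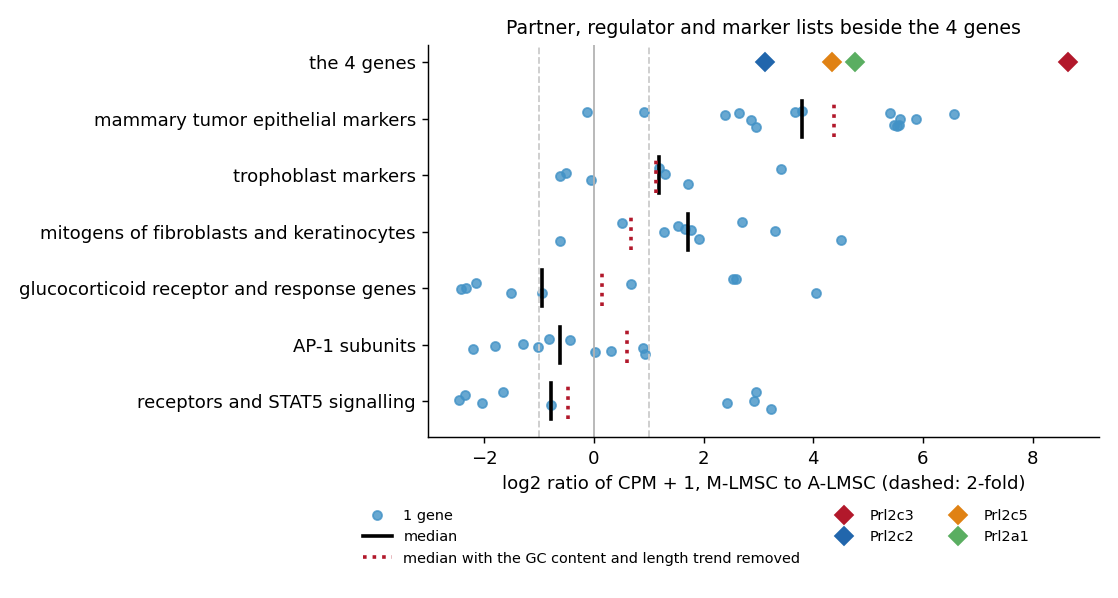
Log2 ratio of CPM + 1 in M-LMSCs to A-LMSCs (x axis, dashed lines at 2-fold) of the measured genes of 6 lists (rows, circles) and of the 4 chosen genes (top row, diamonds), with the median of each list as a black line and a dotted red line for the median after subtraction of the trend on GC content and transcript length. The 4 genes lay between 3.11 and 8.64, the mammary tumor epithelial markers had a median of 3.79 (4.39 with the trend removed), and the AP-1 median turned from -0.62 to 0.61.

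Because these hormones are best known from trophoblast, 35 trophoblast markers were measured. Of these, 14 had no count in any library, and 11, 12 and 20 had counts in order of stage. Their summed levels, 68.2, 116.6 and 88.1 CPM, did not follow those of the 4 genes. Of 7 measured in M-LMSCs against PM-LMSCs, 2 were higher and 0 lower, with a median log2 difference of 0.01, beside 4.27 for the summed hormone genes. Gata2, a trophoblast and endothelial transcription factor gene, was at 52.4, 64.3 and 33.7 CPM and made up much of each sum. Peg10, an imprinted gene of the placenta, was at 1.90, 30.0 and 30.1 CPM. Gata3 had 13, 41 and 106 counts, Elf5 had 4, 0 and 36, Tfap2c 1, 2 and 29 and Ascl2 20, 7 and 17, and Gata3, Elf5 and Tfap2c are also expressed in mammary epithelium. Tpbpa, Gcm1, Hand1, Cdx2 and Synb were among the 14 at 0 in every library. Others of the list had few counts, with Eomes at 1, 7 and 13 and Phlda2 at 1, 1 and 8. Ctsq and Plac1 each had 0, 0 and 2 counts. Of the genes for pregnancy-specific glycoproteins, which are secreted by trophoblast, Psg17 had 8 counts, Psg21 and Psg22 had 5 each, Psg23 4, Psg29 3 and Psg19 2, in M-LMSCs alone, and these were picked out after their values were seen.

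Most genes of the list drawn up as mammary tumor epithelial markers were highest in M-LMSCs, as the 4 genes were. The list holds keratin, claudin and other epithelial genes, so it cannot tell mammary tumor cells from other epithelial cells. Krt19 was not, at 29.5, 27.4 and 27.2 CPM. From surface markers, the paper proposes that its LMSC preparations were mostly or fully free of breast cancer and lung epithelial cells. Which cells gave the counts of these markers was not tested. The 16 markers summed to 51.2 CPM in A-LMSCs, 109.7 in PM-LMSCs and 1329 in M-LMSCs, and 14, 16 and 16 of them had a count. In M-LMSCs against PM-LMSCs, 14 of 15 measured were higher, with a median log2 difference of 3.23. Krt8, a luminal keratin gene, was at 2.08, 20.3 and 291.2 CPM, Krt7 at 5.26, 17.4 and 367.5 CPM and Krt18 at 4.17, 15.7 and 237.6 CPM. Epcam, which encodes an epithelial adhesion molecule, had 1, 42 and 879 counts. Cdh1 had 5, 72 and 1095 counts and Cldn4 18, 54 and 2119. None of the 16 was at 0 in M-LMSCs. The 13 stromal markers were divided, with 6 higher and 4 lower in M-LMSCs against A-LMSCs, and none was at 0 in any library. Their summed level was 37669, 27503 and 10273 CPM, but most of the A-LMSC sum was Col1a1 and Col1a2, at 16401 and 13379 CPM. The sum thus gives the order of these collagen genes rather than that of the markers as a set. Col1a1, Col1a2 and Col3a1 were each lowest in M-LMSCs, with Col1a1 at 16401, 7267 and 1815 CPM. Itgb1, the integrin beta chain gene, went the other way at 42.6, 1846 and 2074 CPM, as did Pdgfra, Dcn, Cd44, Ly6a and Nes in M-LMSCs against A-LMSCs. With the trend removed, the log2 difference of M-LMSCs to A-LMSCs turned from 2.23 to -0.22 for Cd44. It fell from 2.01 to 0.099 for Dcn and from 2.11 to 0.21 for Pdgfra. Itgb1, Ly6a and Nes stayed over 2-fold higher, at 3.56, 1.41 and 3.06. Fewer cells of a type and less RNA per cell cannot be told apart in these bulk libraries, and the part of epithelial cells in the hormone gene counts was not tested.

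The summed markers of other cell types were not highest in M-LMSCs, though single markers were. Lung epithelial markers summed to 116.3, 1.09 and 12.0 CPM, and most of the A-LMSC sum was Sftpc, the surfactant protein C gene, with 969, 0 and 29 counts. In M-LMSCs against PM-LMSCs, 3 of 3 measured lung epithelial markers were higher, with a median log2 difference of 1.52. Foxj1, a transcription factor gene of ciliated cells, had 1, 3 and 95 counts and so was highest in M-LMSCs as the 4 genes were. Endothelial markers summed to 3.44, 18.1 and 6.38 CPM and leukocyte markers to 116.5, 328.6 and 166.0 CPM, both highest in PM-LMSCs. Tek, an endothelial receptor gene, had 0, 2 and 24 counts, but its log2 difference of 1.26 in M-LMSCs against A-LMSCs turned to -0.55 with the trend removed. The part of these cells in the counts of the 4 genes was not tested.

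Position offered a comparison that the choice of genes had not used. Within 500 kb of the 3 proliferin genes, 9 other genes started, 7 of which were measured. Of these, 6 were higher in M-LMSCs against A-LMSCs, with a median log2 difference of 2.81, but 1 was higher in M-LMSCs against PM-LMSCs, where the median was 0.36. Over all measured genes, 41.0% and 17.3% were higher in these comparisons, with medians of 0.34 and 0.03. The neighbor values are given without removal of the trend. Nid1, encoding the basement membrane protein nidogen, was at 136.8, 1139 and 965.3 CPM, Lgals8, a galectin gene, at 4.35, 43.6 and 56.3 CPM and Heatr1 at 0.725, 55.0 and 43.7 CPM. These neighbors were high from the PM-LMSC library on. Gpr137b was at 12.5, 29.1 and 52.4 CPM, Gpr137b-ps at 6.62, 5.08 and 8.47 CPM and Ero1lb at 0.453, 3.59 and 3.60 CPM. Lyst, a lysosomal trafficking gene, was the exception, with 7, 11 and 230 counts and a log2 difference of 2.95 between M-LMSCs and PM-LMSCs. The 3 genes outside the family that started within 500 kb of Prl2a1 had no counts.

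The genes outside the family whose pattern lay nearest to that of the 4 summed genes were ranked by Euclidean distance in the plane of the log2 ratios of PM-LMSCs and M-LMSCs to A-LMSCs, over the 3 libraries. The 10 nearest lay within 0.215 to 0.668 of the sum at 0.42 and 4.70. The nearest was Csn1s1, the casein gene named above, at 0.21 and 4.70. It was followed by Trp53inp1, Slc25a48, Prrg4, Klk10, Ccl20, Mbnl1, Ascc3, Adamts5 and Polk. All of the 10 but Adamts5 had at most 12 counts in A-LMSCs, so the pseudocount weighs on their place. Without it, Csn1s1 in M-LMSCs was at least 91.7-fold the A-LMSC limit and 160-fold (43.9 to 1323) its PM-LMSC level. For the 4 summed genes these ratios were 26.9-fold and 19.8-fold. Klk10, a kallikrein protease gene, had 9, 10 and 675 counts, and Ccl20, a chemokine gene, 12, 37 and 1070. Adamts5, which encodes an aggrecan-cleaving protease, had 133, 301 and 4389 counts and the highest M-LMSC level of the 10 at 37.8 FPKM. With 3 libraries, likeness of this kind rests on 2 ratios that share the A-LMSC library.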

How the data were processed

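RNA was measured in 3 LMSC libraries, 1 per stage, grouped by their labels. The authors aligned reads with TopHat2 (2.0.9) to mm10 and deposited 1 table with counts and FPKM per gene. The counting tool, annotation, strand setting and treatment of reads matching several genes were not given in the sources used here. The 3 columns of counts and the 3 of FPKM were used, and 0 per-sample columns were left unmapped. Of 34748 lines, 6 that were broken across lines were left out, and 27 symbols turned into dates were kept by gene ID.

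The deposited counts were scaled to CPM with TMM (edgeR 4.0.16, R 4.3.3). Differences are log2 ratios of CPM + 1. Ratios without this pseudocount have exact conditional binomial (Clopper-Pearson) 95% intervals, and levels have exact Poisson intervals. Total counts per library were 12594155 to 14338909. PCR duplicates are not independent molecules, so intervals cover counting error only, and no test across stages was possible with 1 library each. The deposited FPKM, which the authors normalised for length and depth, served for levels between genes. Transcripts came from GENCODE M21, promoters from RefSeq (GRCm38.p6). The trend on GC content and length was a lowess fit with span 0.3 over protein-coding genes.

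The genes and lists were chosen with earlier results of these data known. The rule for named genes took the 4 genes, family genes with a count, Prlr, Igf2r and up to 6 genes per list with the largest difference of M-LMSCs to A-LMSCs, the 10 genes nearest in pattern, and up to 8 measured neighbors within 500 kb. Not all that it took are printed. Outside it, Prl, Gh, Prl3b1, Prl7d1, Csn2, Wap, Lalba, the 5 trophoblast markers at 0 and the Psg genes were named after their values were seen. So were Eomes, Phlda2, Ctsq, Plac1, Atf3, Batf, Pdgfra, Dcn, Cd44, Krt19, Hbegf and Fgf2. Alternatives were library totals, median-of-ratios (DESeq2 1.42.0) and upper-quartile scaling, FPKM, pseudocounts of 0.1 and 5, no minimum, a minimum of 5 CPM, and removal of the trend. The ratio calculation was tested on simulated data.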

Additional observations from a re-analysis of the deposited data

How the results depend on the processing

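The higher summed level of the 4 genes in M-LMSCs kept its direction under all 9 alternatives. On the log2 scale, the difference of M-LMSCs to A-LMSCs, 4.70 as reported, was 5.24 with library totals, 4.51 with median-of-ratios scaling, 4.46 with upper-quartile scaling, 5.21 with FPKM, 4.51 with a pseudocount of 5 and 2.87 after subtraction of the trend on GC content and length. That of M-LMSCs to PM-LMSCs, 4.27 as reported, was 4.52 with library totals, 4.52 with FPKM, 4.14 with a pseudocount of 5 and 2.99 with the trend removed. The small difference of PM-LMSCs to A-LMSCs, 0.42 as reported, was 0.73 with library totals, 0.20 with upper-quartile scaling, 0.69 with FPKM and -0.23 with the trend removed. The number of the 4 genes at least 2-fold higher in PM-LMSCs than in A-LMSCs, 2 as reported, was 1 in each of 4 settings: FPKM, the pseudocount of 5, the 5 CPM minimum and subtraction of the trend. The cause was not tested.

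Removal of the trend also turned single values. In PM-LMSCs against A-LMSCs these were Egfr (-0.27), Klf9 (-0.030), Nr3c1 (-0.45) and Polk (-0.36). In M-LMSCs against A-LMSCs they were Batf3 (0.59), Btc (-0.12), Cd44 (-0.22), Egfr (-1.12), Fosl1 (0.28), Jund (0.049), Tek (-0.55) and the median of the endothelial markers (-0.32). In M-LMSCs against PM-LMSCs it was Ereg (-0.035). Over all genes, the number at least 2-fold higher in M-LMSCs than in A-LMSCs was 5418 as reported and 2475 with the trend removed, and the number lower was 3666 as reported, 1817 with library totals and 1347 with FPKM. In PM-LMSCs against A-LMSCs, 4456 were higher as reported and 2335 with the trend removed, and 3183 were lower as reported and 1626 with FPKM. In M-LMSCs against PM-LMSCs, 2285 were higher as reported, 1237 with a pseudocount of 5 and 1333 with the trend removed, and 1035 were lower as reported, 407 with FPKM and 628 with a pseudocount of 5. The share of higher among all genes past 2-fold in that comparison was 68.8% as reported, 80.6% with library totals, 79.5% with FPKM and 50.6% with the trend removed. In PM-LMSCs against A-LMSCs it was 58.3% as reported and 69.9% with library totals.

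With 1 library per stage, differences between stages cannot be told apart from differences between mice, cultures or library preparations. Prl2c3 in A-LMSCs rests on 1 count and Prl2a1 in PM-LMSCs on 3, so the size of their ratios is poorly set. The division of counts between Prl2c3 and Prl2c2 depends on how shared reads were assigned, whereas Prl2a1 has no such shared sequence.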
